A study of Rattus norvegicus with 10 samples.

Results

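Genes of glucocorticoid action, 10 in number, were examined in the neurointermediate lobe of the rat pituitary after water deprivation: Hsd11b1, Nr3c1, Fkbp5, Tsc22d3, Sgk1, Klf9, Zbtb16, Mt1, Mt2A and Errfi1. They were chosen by name, with earlier results of these data known. A member was read from every probe set (the group of short probes that measures 1 transcript on the array) whose platform annotation gave that gene symbol and no other. Of the 10 genes, 9 had such a probe set, among 14217 genes measured in this way, and together they had 13 of the 31042 probe sets. Zbtb16 had none and is not analysed here. The lobe was taken from male Sprague Dawley rats aged 10 to 12 weeks, either dehydrated for 3 days or kept as controls. Each of the 10 arrays (Affymetrix Rat Genome 230, version 2.0), 5 per group, carried RNA pooled from 5 animals, so the spread between arrays is that between separate pools. The sample labels and the title name this lobe, whereas the design text names the supraoptic nucleus, and the sample labels were followed.

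Glucocorticoids act through an intracellular receptor, the product of Nr3c1, that waits in the cytosol with heat shock proteins and immunophilins and enters the nucleus when it binds hormone. How much hormone reaches the receptor depends on the blood level and on enzymes inside the cell. The reductase encoded by Hsd11b1 regenerates active corticosterone from its inert keto form, and the dehydrogenase encoded by Hsd11b2 does the reverse. Among the genes that the bound receptor is known to induce are Fkbp5, Tsc22d3, Sgk1, Klf9, Zbtb16, the metallothioneins and Errfi1. Most of these genes also respond to other signals.

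Of the 8 member genes bright enough to be tested, 4 rose in dehydrated lobes and none fell. Hsd11b1 rose 2.40-fold, Mt2A 1.48-fold, Sgk1 1.45-fold and Fkbp5 1.36-fold. The receptor gene Nr3c1 and the receptor-inducible genes Tsc22d3, Klf9 and Errfi1 did not pass the test. The test was limma's moderated test on log2 of the signal plus a pseudocount of 5, fitted over the brightest 60% of probe sets (18625), with Benjamini-Hochberg adjustment over all of them and a threshold of 0.05. All fold changes are on that log scale, which understates the change of dim probe sets. Counted as probe sets, 9 of the 13 were kept and 4 of the 9 were higher, beside 1.68% of all tested probe sets that were higher and 0.784% that were lower. Because the members were chosen with earlier results known, these shares and those below describe the members and do not test for an excess. The median log2 change was 0.28 over the 8 genes and 0.007 over all tested genes. Counted as probe sets, it was 0.45 over the 9 of the members and -0.01 over all tested ones.

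The arrays were close in overall level, and the tissue makeup was read from marker lists. Median signals lay between 35.7 and 39.6. The mean log2 ratio of 3' to 5' signals of GAPDH and beta-actin, which rises as RNA is shortened, ranged from 1.61 to 2.67 on dehydrated and from 1.26 to 2.52 on control arrays (exact two-sided permutation p = 0.214, adjusted p = 0.300 over 7 such measures). Melanotroph markers such as Pomc and pituicyte markers such as Gja1 were bright, but so were anterior lobe hormone genes such as Gh1. The 6 anterior lobe markers include the transcription factor Pou1f1, which was dim. Their summed signals ranged from 2751 to 7238 on dehydrated and from 1533 to 5921 on control arrays. Fshb was the only one called, at -0.86 (limma adjusted p = 0.00507), while Tshb at 1.17 did not pass (adjusted p = 0.260). The mean log2 signal of 6 melanotroph markers was lower in the dehydrated group by 0.26, and those of 10 pituicyte, 7 endothelial and mural and 7 fibroblast markers were higher by 0.31, 0.46 and 0.49 (exact permutation p = 0.00794 to 0.0159, adjusted p = 0.0185 to 0.0278). These means rest on some of their markers: the melanotroph list had 1 called marker, Pcsk2 at -0.88, beside Pomc at -0.09. The pituicyte list had 3 called of 10, with Gfap at 2.38, while Aqp4, Rax and S100b were at -0.22, -0.19 and -0.21 and did not pass. The fibroblast list had 4 called of 7, with Postn at 1.24. Col1a1, Col1a2 and Col3a1 were at 0.23, -0.17 and 0.14 and did not pass. The endothelial and mural list had 4 called of 7, with Flt1 at 0.90. Pecam1, Pdgfrb and Plvap were at -0.01, 0.04 and 0.44 and did not pass. In pooled tissue, fewer cells of a type and less RNA per cell cannot be told apart.

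Hsd11b1, the activating enzyme, had the largest change among the tested members. Its signals on the 5 control arrays were 286.4, 269.6, 231.3, 216.2 and 233.5. On the 5 dehydrated arrays they were 502.1, 607.6, 695.4, 596.5 and 605.7. Every dehydrated array was far above every control array. The means were 247 ± 29.3 and 601 ± 68.5 (SD, n = 5), a log2 change of 1.26 ± 0.10 SE (95% interval 1.06 to 1.47, limma adjusted p = 1.27e-06). When the fit also took account of each array's 3' to 5' ratio, the change was 1.23 (adjusted p = 1.54e-06).

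**Figure D1:**
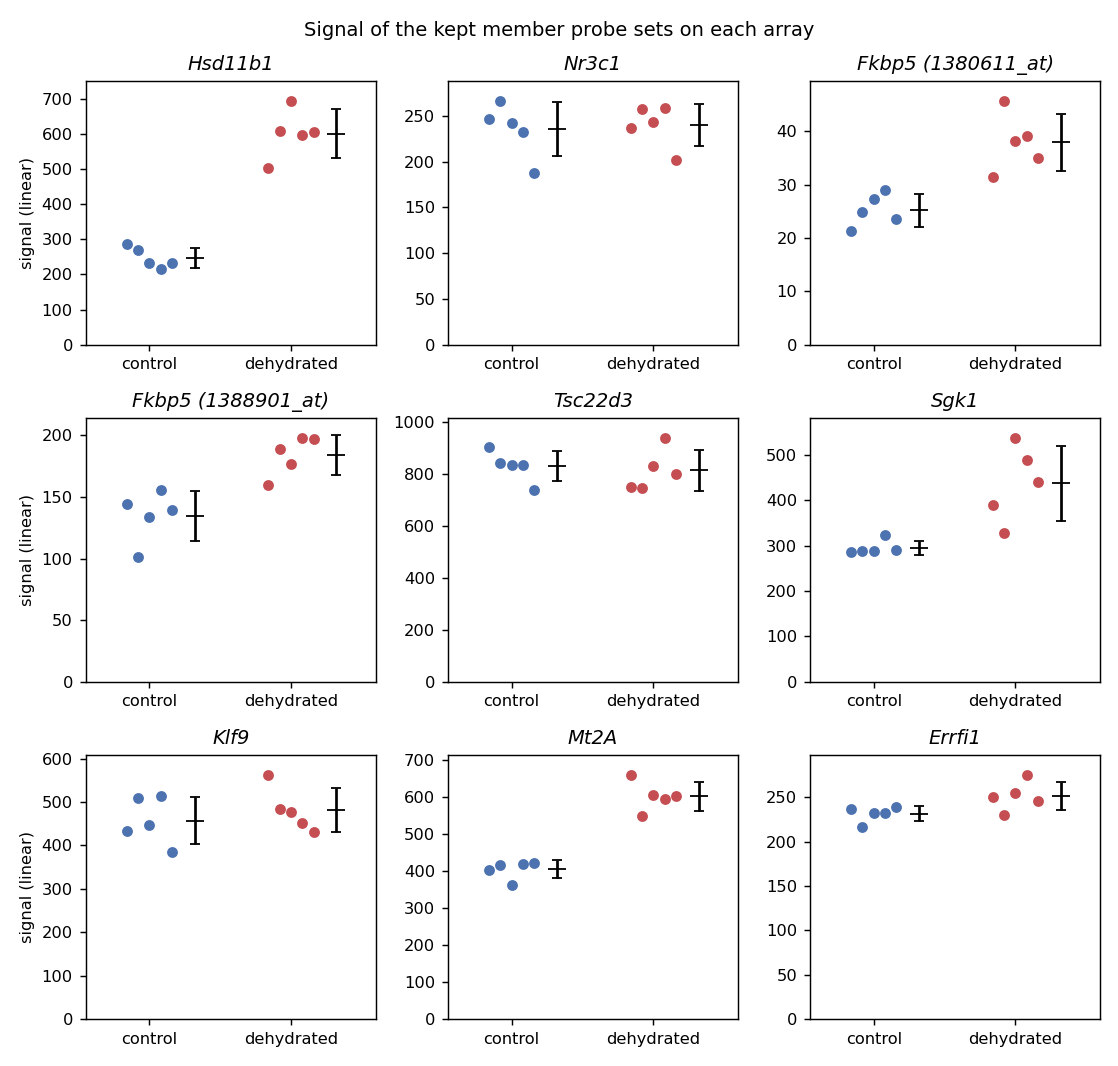
Signal on a linear scale (vertical axis) of each kept member probe set on the 5 control arrays (blue) and the 5 dehydrated arrays (red), with the group mean and SD in black. The groups do not overlap for Hsd11b1, Mt2A, Sgk1 and both Fkbp5 probe sets, and they overlap for Nr3c1, Tsc22d3, Klf9 and Errfi1.

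The other genes that set the supply of hormone to the receptor were mostly too dim to test. Of 7 listed, 5 had a probe set and 1 was kept: H6pd, which makes the cofactor that the reductase needs. Its signal was 40.9 ± 6.69 in the control and 49.9 ± 5.76 in the dehydrated group (SD, n = 5), a log2 change of 0.27 ± 0.14 SE that did not pass (limma adjusted p = 0.357). Hsd11b2 had signals of 10.6 ± 6.55 and 14.2 ± 12.6 (SD, n = 5) and was below the filter. The groups of H6pd overlapped.

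Nr3c1, the receptor gene, had nearly the same signals in both groups. Control arrays read 246.7, 266.7, 242.4, 232.6 and 187.2. Dehydrated arrays read 236.9, 257.6, 243.2, 258.2 and 201.8. The ranges overlapped almost entirely. The log2 change was 0.03 ± 0.10 SE (95% interval -0.18 to 0.24, limma adjusted p = 0.911). Its other probe set was dim, at 0.9 to 11.1 over all arrays, and was not tested. Nr3c2, the mineralocorticoid receptor gene, whose product also binds corticosterone, changed by -0.04 (adjusted p = 0.907).

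The tested partners of the receptor did not pass either. The receptor and chaperone list held 11 genes, Nr3c2 among them. Hsp90aa1 and Hspa8 had no probe set with that symbol alone and were not tested. Of the 9 tested genes, none was called, beside 2.31% of all tested genes that rose and 0.878% that fell. A list this short would often hold no call at such shares. Of these 9, 7 had a negative change, and the median was -0.10. Hspa4, a heat shock protein, had the smallest p of them, with signals of 323 ± 61.4 in the control and 237 ± 79.1 in the dehydrated group (SD, n = 5), which is a log2 change of -0.47 ± 0.17 SE (limma adjusted p = 0.168). That gene was called without dehydrated 5, and without dehydrated 5 and control 1 together, where its change was -0.75 (adjusted p = 0.00145). Fkbp4, an immunophilin that helps carry the receptor to the nucleus, changed by -0.05 (adjusted p = 0.870). None of the 6 tested coregulators was called, beside the same shares. Crebbp, an acetyltransferase, had the smallest p of these (log2 change -0.20, limma adjusted p = 0.334).

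Fkbp5, an immunophilin that lowers the receptor's affinity for hormone and is itself induced by the receptor, was read by a bright and a dim probe set. The bright probe set gave 144.6, 101.4, 133.9, 155.5 and 139.3 on control arrays. It gave 159.9, 189.1, 177.1, 198.2 and 197.4 on dehydrated arrays. The groups did not overlap, although the highest control and the lowest dehydrated array lay close together. The log2 change was 0.45 ± 0.11 SE (means 135 ± 20.4 and 184 ± 16.1, SD, n = 5; limma adjusted p = 0.0417). The dim probe set read 21.3 to 29.1 in the control and 31.5 to 45.8 in the dehydrated group, again without overlap, with a change of 0.50 ± 0.15 SE that did not pass (adjusted p = 0.0869). The changes of both probe sets differed by 0.06 (exact two-sided permutation p = 0.690). The call on the bright probe set ended under 9 of 22 alternatives, with adjusted p up to 0.0923. Those were leaving out dehydrated 2, 3 or 4 or control 2, 3 or 5, testing dim probe sets too, dropping the intensity trend of the variance model, and adding the 3' to 5' ratio to the fit. Averaging both probe sets gave a change of 0.48 (adjusted p = 0.0240).

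Sgk1, a kinase that raises the surface expression and activity of sodium channels and transporters, is induced by corticosteroids and also by osmotic stress. Its control signals were 286.1, 287.5, 287.4, 323.6 and 291.4. Its dehydrated signals were 389.7, 327.9, 537.9, 489.8 and 441.3. The control pools were tightly grouped except for control 4, while the dehydrated pools spread widely, and dehydrated 2 lay just above control 4. The means were 295 ± 16 and 437 ± 82.4 (SD, n = 5), a log2 change of 0.54 ± 0.11 SE (limma adjusted p = 0.0132). The call ended without an intensity trend in the variance model (adjusted p = 0.0583) and held in the other 21 alternatives, with a change of 0.60 when that ratio entered the fit.

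Metallothioneins are small cysteine-rich proteins that bind zinc and copper, and their genes answer to metals through metal response elements in the promoter and to glucocorticoids. Mt2A read 401.7, 416.5, 362.2, 417.9 and 419.7 on control arrays. It read 658.9, 547.2, 604.4, 592.8 and 600.4 on dehydrated arrays. The groups were well apart, with little spread within either. The log2 change was 0.57 ± 0.07 SE (means 404 ± 24.2 and 601 ± 39.8, SD, n = 5; limma adjusted p = 0.000291), and the call held in all 22 alternatives. Of the 9 kept member probe sets, 5 had groups that did not overlap, all of them higher, beside 2.78% of all tested probe sets that were apart in that direction and 4.59% in either.

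Mt1 could not be followed in the same way. Its only probe set with that single symbol read 2.5 to 15.2 in the control and 1.4 to 12.2 in the dehydrated group, below the filter. A brighter probe set is annotated to Mt1 together with other genes and was assigned to none. The values therefore give no direction for Mt1.

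The promoters of both metallothionein genes lie close together on rat chromosome 19 and are shown because each holds several matches to the metal response element. The sequences are the 250 bases before the RefSeq start in GRCr8, minus strand, written 5' to 3', with capitals at every match to the core of the metal response element (TGCACNC or TGCGCNC, either strand).
Mt2A, chr19:10838709-10838958: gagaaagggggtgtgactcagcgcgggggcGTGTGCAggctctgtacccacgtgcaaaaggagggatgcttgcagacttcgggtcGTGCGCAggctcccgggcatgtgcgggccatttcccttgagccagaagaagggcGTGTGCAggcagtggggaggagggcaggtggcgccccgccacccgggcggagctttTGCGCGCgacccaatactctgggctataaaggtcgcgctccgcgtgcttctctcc
Mt1, chr19:10832976-10833225: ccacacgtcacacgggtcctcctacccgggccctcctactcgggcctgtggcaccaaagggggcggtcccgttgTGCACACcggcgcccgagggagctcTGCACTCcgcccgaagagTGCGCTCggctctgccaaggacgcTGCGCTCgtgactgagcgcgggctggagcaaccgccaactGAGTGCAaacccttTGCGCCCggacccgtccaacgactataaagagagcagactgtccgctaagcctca

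The Mt2A window held 4 matches to the core and the Mt1 window 6. Of 33469 RefSeq promoter windows of the same length, 20.6% held at least 1 match, 0.266% at least 4 and 0.0269% at least 6. Windows were found for 8 of the 10 members, 13 windows in all because some genes have several starts. Hsd11b1 and Zbtb16 had none, so the counts that follow do not cover them. Apart from the metallothioneins, 1 of these windows held a core match, and it belonged to Nr3c1. None of the 13 held the full palindromic glucocorticoid response element (AGAACA, 3 free bases, TGTTCT) or its arm TGTTCT alone on either strand, letters that 0.012% and 17.5% of all windows held. Each full element also counts as a match to the arm. These are letter matches in a short window and say nothing of binding elsewhere.

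None of the other tested genes of the metal response was called, beside 2.31% of all tested genes that rose and 0.878% that fell. A list this short would often hold no call at such shares. Of 7 tested, 4 had a positive and 3 a negative change, with a median of 0.06. Mt3, a brain-enriched metallothionein, had signals of 1771 ± 150 in the control and 2262 ± 338 in the dehydrated group (SD, n = 5), with a log2 change of 0.34 ± 0.10 SE (limma adjusted p = 0.0707). Its groups overlapped. It passed with each array centred on its median, without dehydrated 5, and without dehydrated 5 and control 1 together (adjusted p down to 0.00692). Mtf1, the transcription factor that binds the metal response element, changed by -0.27 (adjusted p = 0.260).

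Tsc22d3, which encodes the leucine zipper protein GILZ and is a widely used readout of receptor activity, was bright and did not separate the groups. Control arrays read 900.2, 839.5, 833.8, 834.0 and 738.5. Dehydrated arrays read 749.5, 746.4, 829.5, 937.8 and 797.7. The highest and the lowest of all 10 values were dehydrated 4 and control 5. The log2 change was -0.03 ± 0.08 SE (95% interval -0.20 to 0.13, limma adjusted p = 0.875), and it was 0.0044 with each array centred on its median.

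Klf9, a zinc finger transcription factor induced by glucocorticoids and thyroid hormone, did not separate the groups either. Its bright probe set read 432.1, 509.2, 446.7, 513.2 and 385.4 on control arrays and 562.6, 484.1, 477.1, 451.7 and 431.7 on dehydrated arrays. The groups overlapped, and only dehydrated 1 was above all controls. The log2 change was 0.08 ± 0.09 SE (95% interval -0.12 to 0.27, limma adjusted p = 0.723). The other 2 probe sets of Klf9 were below the filter, at 0.8 to 20.1.

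Errfi1, a feedback inhibitor of the epidermal growth factor receptor, read 236.8, 217.0, 232.8, 232.3 and 239.2 on control arrays. It read 250, 230.5, 255.2, 275.3 and 246.1 on dehydrated arrays. Of the 5 dehydrated arrays, all but dehydrated 2 were above the highest control. The log2 change was 0.11 ± 0.07 SE (95% interval -0.04 to 0.27, limma adjusted p = 0.451). Of the receptors and ligands of its pathway, 3 of 9 were bright enough to test. None was called, beside 2.31% of all tested genes that rose and 0.878% that fell. Tgfa had the smallest p of the 3 (log2 change -0.17, limma adjusted p = 0.500).

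**Figure D2:**
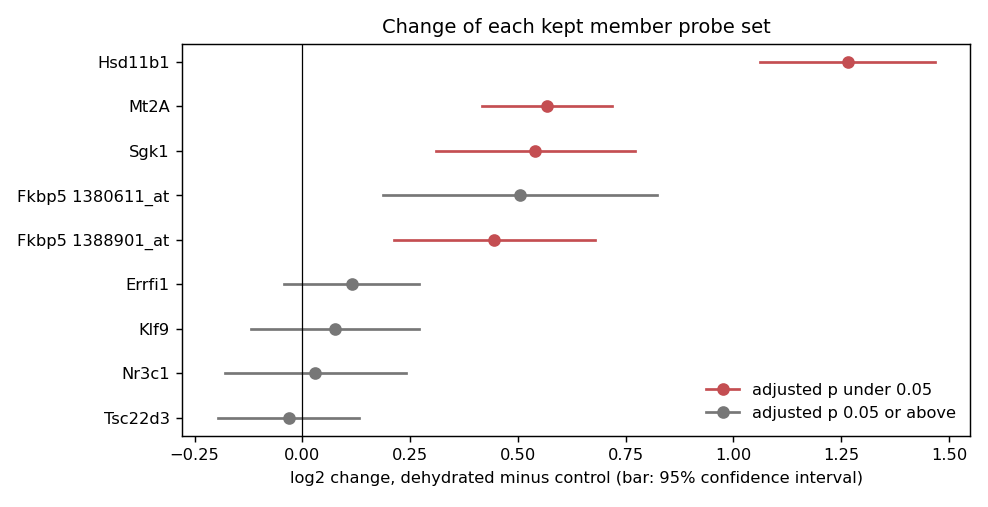
Log2 change (horizontal axis, dehydrated minus control) of the 9 kept member probe sets with 95% confidence intervals, in red where the limma adjusted p was under 0.05. Hsd11b1 lies at 1.26, Mt2A, Sgk1 and Fkbp5 between 0.45 and 0.57, and the intervals of Errfi1, Klf9, Nr3c1 and Tsc22d3 include 0.

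Whether members changed by different amounts was tested directly. The members were chosen with earlier results known, and the p-values make no allowance for that choice. For each of the 28 pairs of the 8 genes, the difference of their log2 signals within each array was compared between the groups by an exact two-sided permutation test over all splits of the 10 arrays into 5 and 5, whose smallest p is 0.00794. After Benjamini-Hochberg adjustment 15 pairs differed. Hsd11b1 rose more than each of the other 7 genes, by 0.70 against Mt2A up to 1.30 against Tsc22d3 (exact p = 0.00794, adjusted p = 0.0171 for each). Tsc22d3 stood apart from Fkbp5 by 0.48, from Sgk1 by 0.57 and from Mt2A by 0.60 (exact adjusted p = 0.0171 for each). Errfi1 also differed from Fkbp5, Sgk1 and Mt2A, by 0.33 to 0.45 (exact adjusted p = 0.0171 to 0.0296). Mt2A further differed from Nr3c1 by 0.54 and from Klf9 by 0.49, whereas Sgk1 and Fkbp5 did not differ from Nr3c1 or Klf9 after adjustment (exact adjusted p = 0.0556 to 0.100). No pair among Mt2A, Sgk1 and Fkbp5, and no pair among the 4 genes that were not called, passed.

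**Figure D3:**
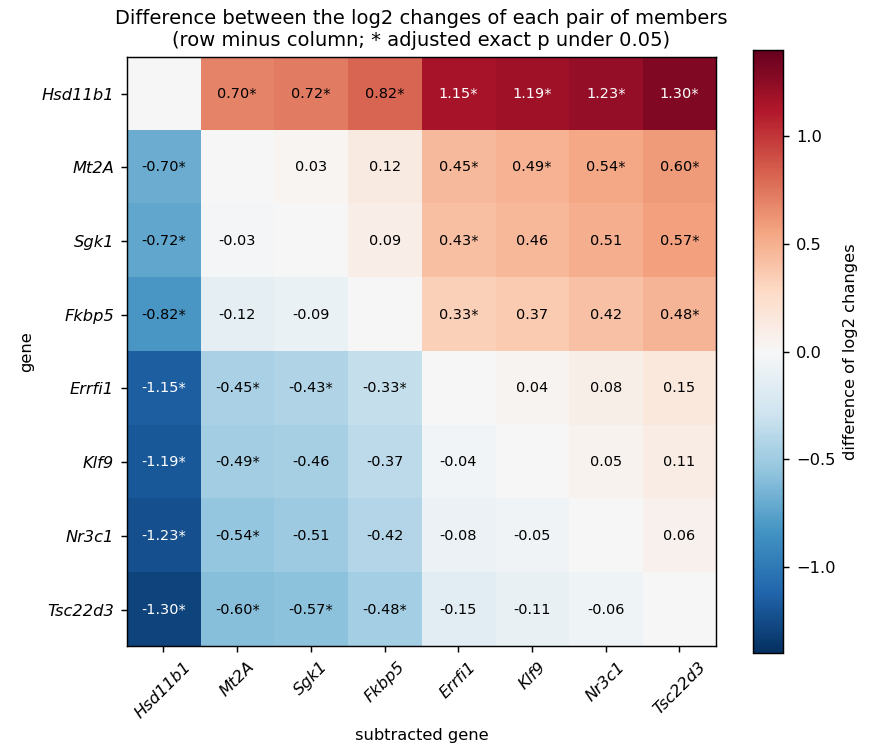
Difference between the log2 changes of each pair of members (row gene minus column gene; colour and number), with an asterisk where the exact permutation p adjusted over 28 pairs was under 0.05. The Hsd11b1 row is marked against all 7 others, from 0.70 to 1.30, and no mark falls among Errfi1, Klf9, Nr3c1 and Tsc22d3.

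Because marker lists moved as well, each member was also set against the mean log2 signal of each of the 6 lists within the same array, and 19 of the 48 comparisons passed after adjustment. Hsd11b1 rose more than all 6 lists, by 0.78 beyond the fibroblast, 0.80 beyond the endothelial and mural, 0.95 beyond the pituicyte and 1.52 beyond the melanotroph markers (exact adjusted p = 0.0224 to 0.0401). These are differences from list means. Single markers changed by about as much as Hsd11b1 or more: the fibroblast marker Postn by 1.24 and the pituicyte marker Gfap by 2.38 (limma adjusted p = 0.000829 and 5.30e-06). The fibroblast marker Mgp changed by 0.99 (limma adjusted p = 1.82e-05), below the 1.26 of Hsd11b1. Mt2A rose more than the pituicyte markers by 0.25 and more than the melanotroph and macrophage markers (exact adjusted p = 0.0224 for each). Against the fibroblast and the endothelial and mural lists it differed by 0.08 and 0.11 (exact adjusted p = 0.555 and 0.582). Sgk1 differed from these lists by 0.05 and 0.08 (exact adjusted p = 0.733 and 0.824), and Fkbp5 by -0.04 and -0.02 (exact adjusted p = 0.831 and 0.989). Both rose more than the melanotroph and macrophage lists. Tsc22d3 and Errfi1 had lower changes than the pituicyte and fibroblast lists, and Nr3c1 than the fibroblast list. Errfi1 had a higher change than the melanotroph list (exact adjusted p = 0.0224 for each of these comparisons that passed). The summed signal of the fibroblast list was 6355 to 7014 in the control and 9225 to 11642 in the dehydrated group, with 4 of 7 markers called higher and none at 0. That of the endothelial and mural list was 839 to 1104 and 1294 to 1644, with 4 of 7 called higher and none at 0. The part of these markers in the changes of Mt2A, Sgk1 and Fkbp5 was not tested. The exact p-values against the lists also make no allowance for the choice of members with earlier results known.

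Beyond the members, 27 further genes that the receptor is known to regulate were listed. Of them 26 had a probe set and 25 were tested. Of these 25, 5 rose, 1 fell and 19 did not pass, beside 2.31% of all tested genes that rose and 0.878% that fell, and the median change was 0.06. This list too was chosen with earlier results known, so the shares do not test for an excess. Angptl4, an inhibitor of lipoprotein lipase, had signals of 21.9 to 47.4 in the control and 120 to 227 in the dehydrated group, a log2 change of 2.08 (limma adjusted p = 6.08e-06). Lcn2, an acute-phase lipocalin, went from 212 ± 29.3 to 830 ± 200 (SD, n = 5; log2 change 1.92, adjusted p = 1.27e-06), and Pdk4, a brake on pyruvate oxidation, from 74.5 ± 10.1 to 126 ± 14.7 (SD, n = 5; log2 change 0.73, adjusted p = 0.00208). The groups of these 3 genes did not overlap, beside 2.78% of all tested probe sets that were apart and higher. Dusp1, a phosphatase of MAP kinases that is also an immediate early gene, fell by 1.33 on the log2 scale, from 726 ± 231 to 276 ± 47.8 (SD, n = 5; adjusted p = 0.000822). Its groups did not overlap either, beside 4.59% of all tested probe sets that were apart in either direction. Each of these genes was named because it was called with a large change, so the lack of overlap adds no separate support.

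The remaining 2 genes that rose, named here after their values were seen, were smaller changes. Anxa1, which mediates anti-inflammatory effects of glucocorticoids, changed by 0.37 (limma adjusted p = 0.0165), and its call ended when dehydrated 3 was left out and when the variance model had no trend, with adjusted p up to 0.0684. Cebpd, a transcription factor, changed by 0.50 (adjusted p = 0.0449), and its call ended in 12 of 22 alternatives, including without any 1 of the 5 control arrays or dehydrated 1, 2, 3 or 4 (adjusted p up to 0.128). The groups of Anxa1 did not overlap, while those of Cebpd did. Among the 19 that did not pass was the clock gene Per1, with a change of 0.02 (adjusted p = 0.963), named after its value was seen. Txnip and Sult1a1, also among the 19, were higher without overlap (limma adjusted p = 0.0957 and 0.0671). Both were named after their values were seen.

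**Figure D4:**
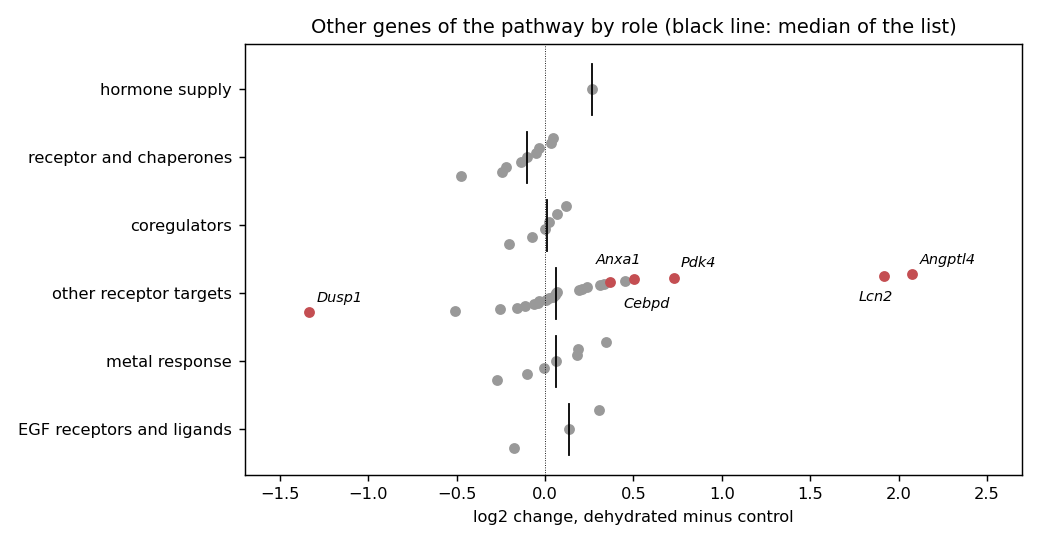
Log2 change (horizontal axis, dehydrated minus control) of the tested genes of the 6 pathway lists, 1 point per gene, in red and named where the limma adjusted p was under 0.05, with the list median as a black line. All 6 called genes belong to the list of other receptor targets, from Dusp1 at -1.33 to Angptl4 at 2.08.

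Single pools did not rank the same way for each member that rose. Dehydrated 1 had the lowest Hsd11b1 and Fkbp5 signals of its group and the highest Mt2A signal. Dehydrated 2 had the lowest Sgk1 and Mt2A signals and the highest signal of the dim Fkbp5 probe set, and dehydrated 3 had the highest Hsd11b1 and Sgk1 signals. With 5 pools in a group, no correlation between members was computed.

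**Figure D5:**
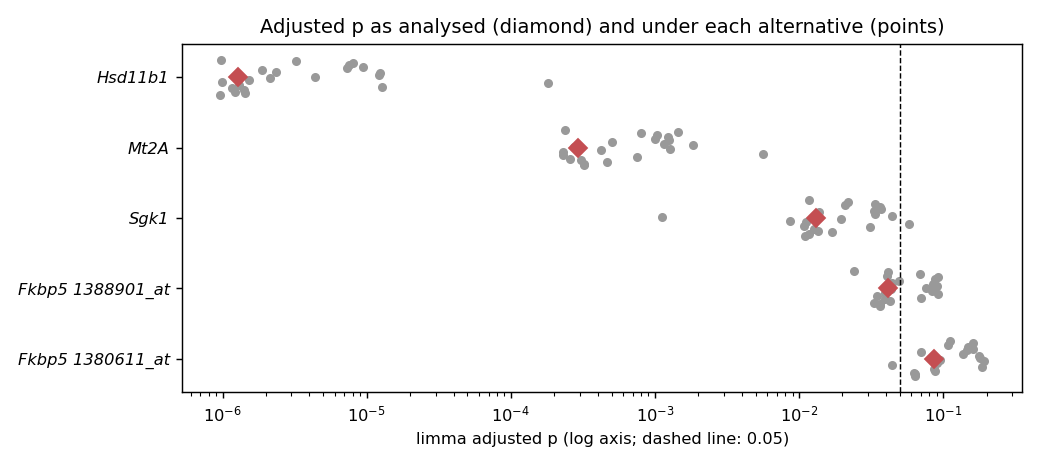
Limma adjusted p (horizontal log axis) of the called members and the dim Fkbp5 probe set as analysed (diamond) and under each alternative (points), with 0.05 as a dashed line. Hsd11b1 and Mt2A stay left of the line throughout, Sgk1 crosses it once, and the points of both Fkbp5 probe sets fall on both sides.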

How the data were processed

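The deposited table holds the authors' signal intensity per probe set on a linear scale. GCOS 1.2 is named in the submitters' processing notes, and its algorithm and settings are not given in the sources used here. The deposited values had the same 2% trimmed mean, about 100.03, on every array, so changes are relative to the average probe set, and no scaling was added. Detection calls were not used here. After removal of 57 control probe sets, 31042 remained, of which 436 had several symbols and were assigned to none. Log2(signal + 5) was fitted with limma 3.58.1 (R 4.3.3, intensity trend). A gene on a list stood for its brightest kept probe set. Exact tests, sequences and figures were made in Python 3.11.15. Data were simulated for this comparison over 18625 probe sets with independent noise, and 50 probe sets picked at random were changed at each size. Of those changed by 0.4 on the log2 scale 20% were recovered, 70% at 0.6 and 92% at 1. These rates hold for that setting and can differ with the share of changed probe sets and with brightness. The members, lists, alternatives and array exclusions were chosen with earlier results of these data known. Named genes were all members, up to 4 called genes per list by size of change, or the gene with the smallest p where none was called. Hsd11b2, Nr3c2, Fkbp4, Mtf1, Anxa1, Cebpd, Per1, Txnip and Sult1a1 were named outside that rule, after their values were seen. The number of arrays limits the precision. Alternatives changed scaling, pseudocount, filter, variance model, integrity covariate, arrays and probe set choice.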

Additional observations from a re-analysis of the deposited data

Results flagged for a closer look

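In 3 of 40 groups of 5 arrays, 1 array's gap to its nearest neighbour took up more of the group's log2 range than Dixon's critical share of 0.710. Chance flags about 1 in 20 groups. Control 4 was the high array for Sgk1, with a signal of 323.6 beside 286.1 to 291.4 on the other controls (share 0.851), and without it the change of Sgk1 was 0.57 (limma adjusted p = 0.0208). The other cases were dim probe sets that were not tested: dehydrated 4 was low for a Klf9 probe set, with a signal of 0.8 (share 0.714), and control 5 was high for the Mt1 probe set, with a signal of 15.2 (share 0.730).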

How the results depend on the processing

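Hsd11b1 and Mt2A kept their direction and call in all 22 alternatives, with log2 changes of 1.21 to 1.33 and 0.53 to 0.60. The number of called member probe sets was 4 or 3 throughout, but not always with the same probe sets. Without an intensity trend, Sgk1 and the bright Fkbp5 probe set were lost (limma adjusted p = 0.0583 and 0.0918). The dim Fkbp5 probe set was called in that setting instead (adjusted p = 0.0442). Over all probe sets 458 were called (312 higher, 146 lower, 68.1% higher), 569 with median centring (456 higher, 113 lower, 80.1% higher), 240 without an intensity trend, 218 to 1163 with 1 array left out (218 without dehydrated 3, 1163 without dehydrated 5, of which 653 higher and 510 lower, 56.1% higher) and 1398 without dehydrated 5 and control 1 together (666 higher, 732 lower, 47.6% higher). Of the other receptor targets, 3 rose without an intensity trend and 3 to 5 with 1 array left out. The number that fell was 2 when the 3' to 5' ratio entered the fit (with Cdkn1c) and 2 without both arrays (with Ddit4). In the 5 other lists 1 gene (Mt3) was called with median centring, 0 to 2 with 1 array left out and 2 (Mt3 and Hspa4) without both arrays. Nr3c1 (0.03) turned to -0.058 with that ratio in the fit and -0.048 without control 5, with 0.089 as the highest value with 1 array left out, and Tsc22d3 to 0.0044 with median centring and 0.0034 without both arrays, none of them called. The cause of these shifts was not tested. The number of differing pairs was 14 to 18 and that of member and marker list comparisons 16 to 24 with 1 array left out. Both were 0 without both arrays, where 4 against 4 arrays allow no exact p below 0.0286. An adjusted p under 0.05 would then need a large part of the tests at that floor. This drop therefore does not tell how these results depend on those arrays. The 3' to 5' ratio differed by 0.37 between groups, by 0.24 to 0.56 with 1 array left out (exact permutation p = 0.0476 without control 1) and by 0.69 without both arrays (exact permutation p = 0.0286). The macrophage difference of -0.03 ranged from -0.098 to 0.092 (0.031 without control 5) and the anterior lobe difference of 0.19 from -0.023 to 0.39 with 1 array left out. No paired analysis was possible because the labels give no replicate numbers that the groups share. How far each probe set lies above background was not given.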
